A study of Mus musculus with 2 samples.

Results

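The Frizzled receptors are the 10 genes *Fzd1* to *Fzd10*, taken by symbol from 23951 gene symbols found in both of the tables analysed here. Each symbol had exactly 1 row per library and none was merged with another gene. RNA-seq was carried out on P12 optic nerves from control mice (1 library, labelled Tcf7l2 c/+; OLig1-cre) and from *Tcf7l2*ΔHMG mutants (1 library, labelled Tcf7l2 c/c; OLig1-cre). *Olig1*-Cre acts in the oligodendrocyte (OL) lineage and removes floxed exon 11 of *Tcf7l2*, which encodes the DNA-binding HMG box. The controls carry the same Cre with 1 floxed allele, so they are heterozygous in recombined cells, whereas each library holds RNA from all cell types of the nerve. The number of animals behind a library is not given in the sources used here.

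Frizzled proteins are multi-pass membrane receptors that bind Wnt ligands through a cysteine-rich extracellular domain. With the co-receptors Lrp5 and Lrp6 and the cytoplasmic protein Dishevelled they stabilize β-catenin, the partner of Tcf7l2 and the other TCF/LEF factors, and they also take part in β-catenin-independent signalling, including planar cell polarity. In the OL lineage, persistent β-catenin signalling is known to hold back differentiation, and Wnt signals also pattern the vessels of the nervous system.

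In coding sequences of the GENCODE M21 annotation (GRCm38), the highest identity among 45 pairs was that of *Fzd1* and *Fzd2*, with 81.3% of 1688 aligned bases. *Fzd2* and *Fzd7* shared 78.5%, and *Fzd1* and *Fzd7* shared 78.1%. *Fzd5* with *Fzd8* (75.4%) and *Fzd9* with *Fzd10* (69.7%) came next, and the lowest identity was 53.7% (*Fzd3* with *Fzd9*). The family shares a cytoplasmic docking site for Dishevelled, Lys-Thr-X-X-X-Trp, where X is any residue. A search of the coding sequences found exactly 1 such site in each of the 10 genes. The site and its flanks are printed for 9 of the genes to show what the receptors have in common, with the 6 codons of the site in capitals (GRCm38 positions, coding exons, sense strand). The sequence of *Fzd8* is not shown here.
Fzd1 (chr5:4755682-4755741, minus strand): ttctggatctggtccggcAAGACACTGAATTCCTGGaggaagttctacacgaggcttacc
Fzd2 (chr11:102606355-102606414, plus strand): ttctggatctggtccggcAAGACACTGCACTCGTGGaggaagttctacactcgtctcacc
Fzd7 (chr1:59484589-59484648, plus strand): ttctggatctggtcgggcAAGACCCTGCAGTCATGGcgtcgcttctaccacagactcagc
Fzd5 (chr1:64734987-64735046, minus strand): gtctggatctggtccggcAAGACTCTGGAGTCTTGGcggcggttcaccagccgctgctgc
Fzd4 (chr7:89408223-89408282, plus strand): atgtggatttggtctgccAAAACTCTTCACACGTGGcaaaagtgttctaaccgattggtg
Fzd9 (chr5:135249392-135249451, minus strand): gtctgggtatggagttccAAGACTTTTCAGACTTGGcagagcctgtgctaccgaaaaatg
Fzd10 (chr5:128602778-128602837, plus strand): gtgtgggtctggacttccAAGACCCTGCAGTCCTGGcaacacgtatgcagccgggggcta
Fzd3 (chr14:65212083-65212142, minus strand): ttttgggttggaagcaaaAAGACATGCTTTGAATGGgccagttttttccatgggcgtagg
Fzd6 (chr15:39033931-39033990, plus strand): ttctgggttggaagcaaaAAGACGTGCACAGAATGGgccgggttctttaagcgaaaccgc

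In *Fzd1*, *Fzd2* and *Fzd7* the docking site was followed by 17 codons before the stop codon in each gene. *Fzd4* had 33 codons after it, *Fzd10* 50, *Fzd9* 54, *Fzd5* 55 and *Fzd8* 74. *Fzd3* (159 codons) and *Fzd6* (206 codons), which are best known for planar polarity, had the longest tails. Despite the identity, no stretch of 50 bases was shared between the transcripts of any pair of the 10 genes. In the coding sequences the longest exact match was 47 bases, between *Fzd1* and *Fzd2* and between *Fzd1* and *Fzd7*. *Fzd5* alone shared a sizeable part of its transcript with another annotated gene: 16.6% of its 50-base stretches also occur in Gm38058, so the *Fzd5* level is uncertain. In *Fzd3* and *Fzd4* under 1% of such stretches occur elsewhere, and the other 7 genes had none.

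Facts on the libraries as a whole bear on every value below. Depth, read from the interval bounds of short unnamed rows, was 27624000 fragments for the control library and 39938000 for the mutant library. The unit is FPKM, the fragment number scaled by transcript length and by the depth of the library. *Tcf7l2* was at 17.8 FPKM in control and 14.6 FPKM in mutant nerves, but a value over the whole gene does not measure exon 11 and so does not check the genotype. Markers of the nerve were abundant, with the myelin gene *Mbp* at 16990 and 11646 FPKM and the astrocyte gene *Gfap* at 4059 and 4729 FPKM in control and mutant, although these 4 values lie below their own intervals. Of 7 mature OL markers, 7 were lower in the mutant (summed level 30612 and 17603 FPKM). By over 1.5-fold, 5 of them were lower, compared with 8.52% of all tested genes. Fewer cells of a type and less RNA per cell cannot be told apart in whole tissue.

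All 10 receptors were detected in both libraries above 1 FPKM. The levels spanned 12.7-fold in the control, from 1.59 FPKM for *Fzd5* to 20.2 FPKM for *Fzd9*. *Fzd9*, a receptor studied in neural progenitors, was highest, and *Fzd1* followed with 14.9 FPKM. In the middle of the range lay *Fzd3* (11.6 FPKM), *Fzd6* (10.2 FPKM), *Fzd10* (9.96 FPKM), *Fzd2* (8.29 FPKM) and *Fzd7* (7.52 FPKM). *Fzd8* (3.06 FPKM), *Fzd4* (2.89 FPKM) and *Fzd5* formed the low end. Cufflinks confidence intervals, which cover sampling within a library and not variation between animals, separated *Fzd9* from *Fzd1*, *Fzd1* from *Fzd3*, *Fzd3* from *Fzd6*, *Fzd7* from *Fzd8* and *Fzd4* from *Fzd5*. Neighbours from *Fzd6* down to *Fzd7*, and *Fzd8* and *Fzd4*, had intervals that overlapped. For scale, 72.0% of the tested genes lay below *Fzd9* in the control library and 10.3% below *Fzd5*.

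**Figure D1:**
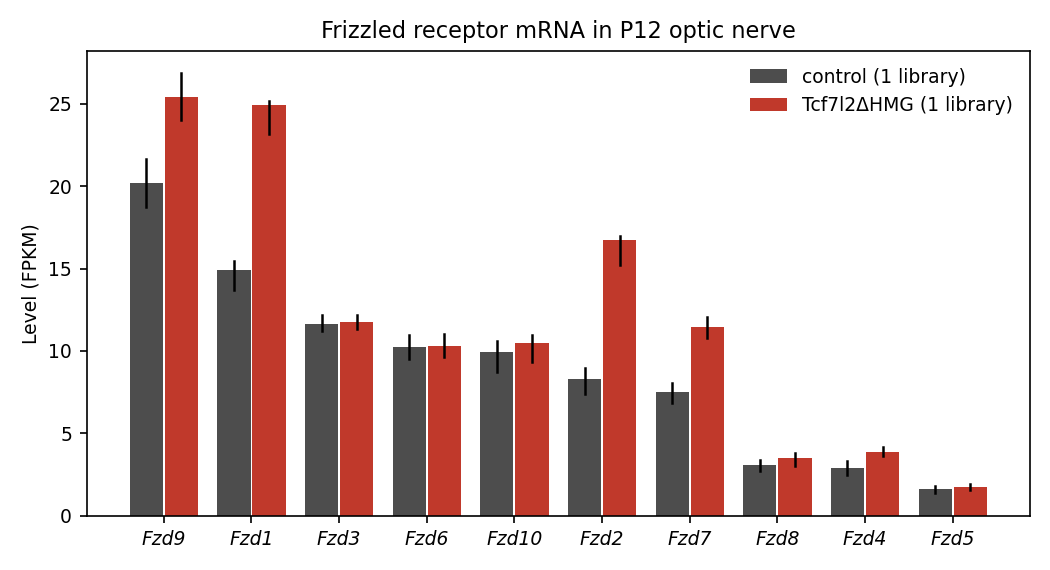
Level (FPKM, linear axis from 0) of each Frizzled gene in the control library (grey) and the *Tcf7l2*ΔHMG library (red), ordered by the control level. Black lines are Cufflinks intervals within 1 library. They do not overlap between the libraries for 5 receptors (*Fzd1*, *Fzd2*, *Fzd4*, *Fzd7* and *Fzd9*), compared with 52.4% of tested genes.

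In the mutant library the same receptors were at the top and bottom, but the order in between changed. *Fzd9* (25.4 FPKM) and *Fzd1* (24.9 FPKM) now had overlapping intervals. *Fzd2*, the sixth highest receptor in the control, was the third highest at 16.7 FPKM, with an interval apart from both neighbours. *Fzd3* (11.8 FPKM), *Fzd7* (11.4 FPKM), *Fzd10* (10.5 FPKM) and *Fzd6* (10.3 FPKM) followed, and no neighbours among these 4 were separated. *Fzd4* (3.89 FPKM), *Fzd8* (3.47 FPKM) and *Fzd5* (1.72 FPKM) were again lowest. Summed over the family, the level was 90.3 FPKM in control and 120.2 FPKM in mutant nerves, a ratio of 1.33. *Fzd1*, *Fzd2* and *Fzd7* made up 34.1% of that sum in the control and 44.2% in the mutant.

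The comparison of the libraries asks which receptor mRNAs differ when Tcf7l2 loses its DNA-binding domain in the OL lineage. After 0.1 FPKM was added to each level, differences were expressed as log2 ratios of mutant to control, and a gene was called past a fold change of 1.5, a log2 ratio of 0.58. With 1 library per genotype no test was possible and no difference has a replicate check. Of the 10 receptors, 3 were called higher in the mutant, compared with 15.4% of 14199 tested genes, and 0 were called lower, compared with 8.52%. The log2 ratio was above 0 for all 10, for 8 of 10 after centring on the median of tested genes, and for 2 of 10 when all rows, unnamed ones included, were rescaled to a common sum. Its median was 0.26, beside a median of 0.05 over all tested genes. Rescaling all rows moved the latter to -0.61 and the share of higher calls among all calls from 64.4% to 7.96%, so ratios are to be read relative to that shift. On that scale *Fzd2* was at 0.34, *Fzd1* at 0.07 and *Fzd7* at -0.06, and none of the 3 was called. Of the 10 receptors, 2 were then called lower, compared with 52.1% of tested genes. The intervals of the libraries were apart for 5 of the 10 (*Fzd1*, *Fzd2*, *Fzd4*, *Fzd7* and *Fzd9*), compared with 52.4% of tested genes, so the share of separated receptors was close to the background.

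**Figure D2:**
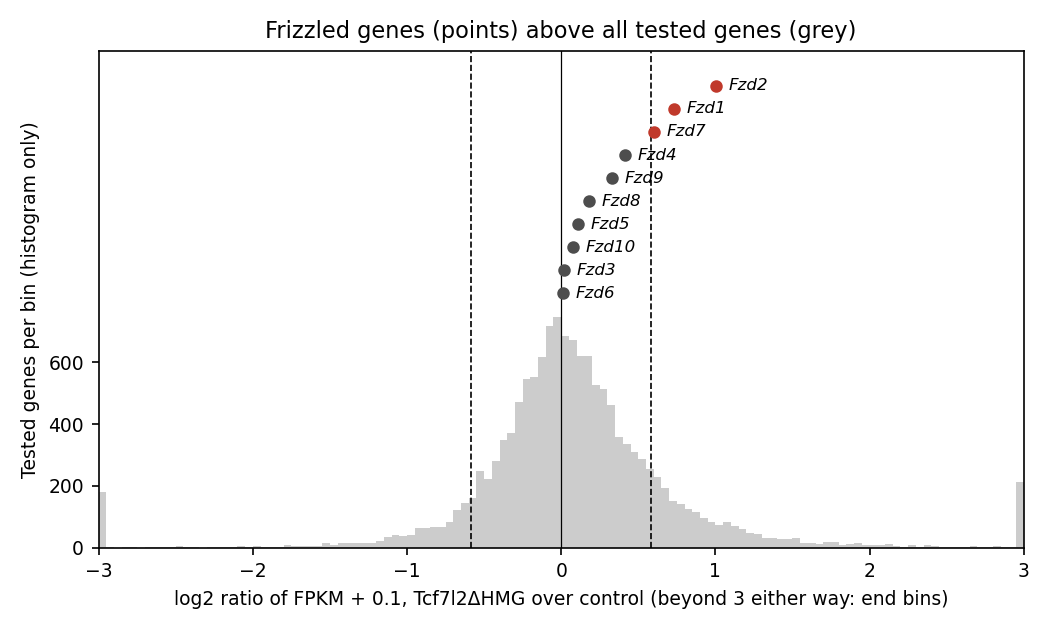
Log2 ratio of mutant to control (horizontal axis) for the 10 Frizzled genes (points, stacked for legibility) above the histogram of 14199 tested genes. Dashed lines mark 1.5-fold, and the 3 red points past the right line are *Fzd7*, *Fzd1* and *Fzd2* on the deposited scale; none is past it when all rows are rescaled to a common sum, which places 52.1% of tested genes past the left line.

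The called receptors were *Fzd2*, *Fzd1* and *Fzd7*, the group with the highest mutual identity. *Fzd2*, which also takes part in Wnt5a signalling with Ror receptors, was at 8.29 FPKM in the control (interval 7.37 to 8.97) and 16.7 FPKM in the mutant (interval 15.2 to 17.0). Its level was about 2-fold higher in the mutant, with a log2 ratio of 1.003, and 93.2% of tested genes had a lower ratio. The row lies on chromosome 11 from 102465745 to 102469372 (mm9) in both tables. *Fzd2* has a single exon, so these levels correspond to about 831 and 2422 fragments. From the bounds of the intervals, the ratio of mutant to control could lie between 1.70 and 2.30.

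*Fzd1*, a receptor for β-catenin-dependent Wnt signals, was at 14.9 FPKM in the control (interval 13.7 to 15.5) and 24.9 FPKM in the mutant (interval 23.2 to 25.2). The log2 ratio was 0.73, 88.9% of tested genes had a lower one, and the bounds allow a ratio from 1.496 to 1.84. The row lies on chromosome 5 from 4753839 to 4758216 (mm9) in both tables, and its levels rest on about 1806 and 4357 fragments. *Fzd7*, known from stem and progenitor cells, was at 7.52 FPKM in the control (interval 6.82 to 8.06) and 11.4 FPKM in the mutant (interval 10.8 to 12.1), a log2 ratio of 0.60. The intervals of the libraries do not overlap for either gene. The call of *Fzd7* was marginal, since the bounds allow a ratio from 1.34 to 1.77 and it was lost with a pseudocount of 1 FPKM (log2 ratio 0.55) and with centring on the median of tested genes (log2 ratio 0.55). Its row also differed, spanning 4809 bases in the control and 5108 bases in the mutant, from 59538991 and 59538954 on chromosome 1 (mm9).

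**Figure D3:**
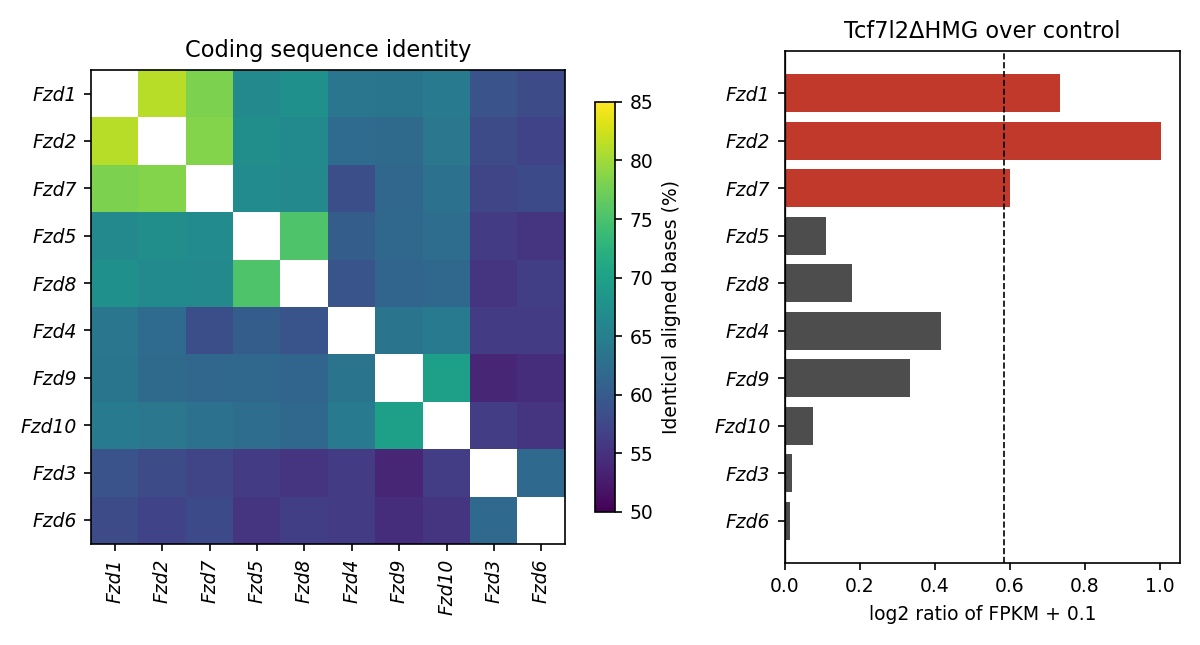
Left, percentage of identical bases in pairwise alignments of the coding sequences of 10 Frizzled genes (colour). Right, log2 ratio of mutant to control for the same genes, with 1.5-fold dashed. The 3 red bars belong to the group in the upper left corner with 78.1% to 81.3% identity. Of all tested genes, 15.4% were called higher on this deposited scale. None of the 3 is called when all rows are rescaled to a common sum.

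The other 7 receptors were together less different, with log2 ratios from 0.01 to 0.42 and a median of 0.11. *Fzd9* was at 20.2 FPKM in the control (interval 18.8 to 21.6) and 25.4 FPKM in the mutant (interval 24.04 to 26.9), a log2 ratio of 0.33 below the cutoff with separated intervals. Its closest relative *Fzd10* was at 9.96 and 10.5 FPKM (log2 ratio 0.08), with overlapping intervals. Another gene, 5930412G12Rik, lies 413 bases from the *Fzd10* row and does not overlap it. The planar polarity receptors *Fzd3* (11.6 and 11.8 FPKM, log2 ratio 0.02) and *Fzd6* (10.2 and 10.3 FPKM, log2 ratio 0.01) had the smallest ratios of the family, and the bounds of their intervals allow ratios from 0.93 to 1.09 and from 0.88 to 1.16. *Fzd5*, which acts in eye development, was at 1.59 and 1.72 FPKM (log2 ratio 0.11). Its relative *Fzd8* was at 3.06 and 3.47 FPKM (log2 ratio 0.18), but its row spanned 4655 bases in the control table and 3346 bases in the other, and unnamed rows lay beside it in both. The intervals overlapped for both, and a difference was not detectable at this depth. In mm9 the rows of *Fzd9* (135724808 to 135726917) and *Fzd10* (129106981 to 129109968) lie on chromosome 5, that of *Fzd3* on chromosome 14 (65811278 to 65881300), that of *Fzd6* on chromosome 15 (38837826 to 38869736) and that of *Fzd5* on chromosome 1 (64777132 to 64784324).

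*Fzd4*, the receptor for Norrin and for Wnt7 signals in vessels of the retina and brain, was at 2.89 FPKM in the control (interval 2.47 to 3.31) and 3.89 FPKM in the mutant (interval 3.60 to 4.18). The log2 ratio was 0.42 and the intervals were apart. The rows behind these values were different gene models. In the control the *Fzd4* row ended at 96558620 on chromosome 7 (mm9), and an unnamed row of 4.62 FPKM began 270 bases further on and ended at 96561578. In the mutant the *Fzd4* row itself ran on to 96561540. Joining both control rows over their 6373 spliced bases gave 3.62 FPKM in the control, and the log2 ratio became 0.10. The joined rows hold about 294 and 343 fragments in the control, against about 1027 for the mutant row. The difference given for *Fzd4* by name thus depends on where its row ends, and joining was chosen after the values were seen.

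**Figure D4:**
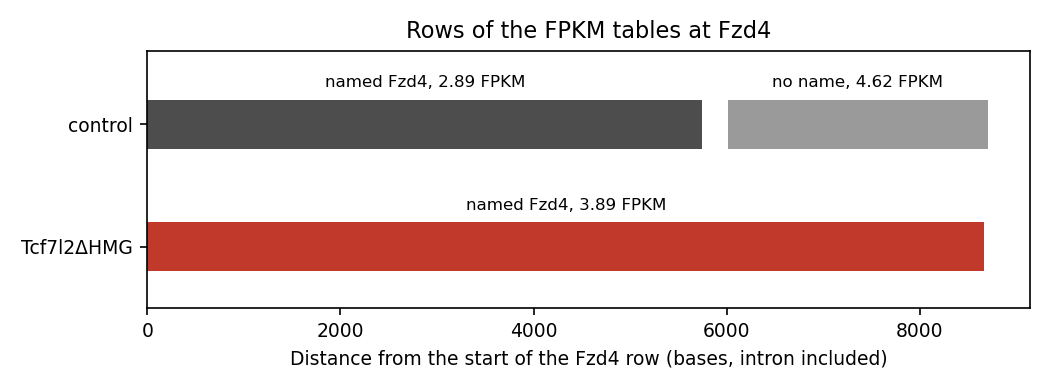
Rows of the control (upper) and *Tcf7l2*ΔHMG (lower) table at *Fzd4*, drawn to scale as distance in bases from the start of the *Fzd4* row. The control table splits into a named and an unnamed row what the mutant table holds as 1 row.

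The promoters of *Fzd1* and *Fzd7* are printed because both genes were called higher; *Fzd2* has no entry in the table used. They run from 250 bases before to 50 bases after the transcription start (RefSeq, GRCm38.p6, sense strand), and capitals mark the core TCF/LEF motif TCAAAG on either strand (CTTTGA when reversed).
Fzd1 (chr5:4758167-4758466, minus strand): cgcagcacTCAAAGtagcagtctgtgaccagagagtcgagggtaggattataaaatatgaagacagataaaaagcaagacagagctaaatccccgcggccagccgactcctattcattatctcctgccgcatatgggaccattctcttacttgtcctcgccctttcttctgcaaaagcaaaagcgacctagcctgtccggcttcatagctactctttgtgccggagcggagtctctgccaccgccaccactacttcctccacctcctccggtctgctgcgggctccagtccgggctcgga
Fzd7 (chr1:59481897-59482196, plus strand): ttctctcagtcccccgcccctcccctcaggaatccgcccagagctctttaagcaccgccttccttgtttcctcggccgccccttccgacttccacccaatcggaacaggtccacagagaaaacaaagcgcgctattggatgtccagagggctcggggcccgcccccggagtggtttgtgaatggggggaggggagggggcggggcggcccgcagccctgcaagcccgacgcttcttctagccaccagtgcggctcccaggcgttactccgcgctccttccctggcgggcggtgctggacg

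Of the 6 receptors with an entry (*Fzd1*, *Fzd4*, *Fzd5*, *Fzd7*, *Fzd9* and *Fzd10*), 1 had the motif, namely *Fzd1*. Among 32851 promoter windows of the same length, 16.0% held it. The *Fzd1* window was also the least GC-rich of the 6, with 54.0% G or C, compared with 66.7% for *Fzd7* and 78.0% for *Fzd9*, and a median of 52.7% over all windows. A motif match is a description of the letters and not a binding site.

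Other genes of Wnt reception were taken from a list of 33 genes, of which 30 passed the filter. Of these, 10 were called higher in the mutant (15.4% of all tested genes) and 0 lower (8.52% of all tested genes). The median log2 ratio was 0.30, beside 0.05 over all tested genes. The higher count and this median include *Ror1* and *Rspo2*, which passed the filter only through the mutant and so could only be higher. With all rows rescaled to a common sum, 1 was called higher and 10 lower, where 4.51% and 52.1% of all tested genes were. The co-receptors and kinase-like receptors had 7 of 7 log2 ratios above 0 on the deposited scale, and 3 were called, beside 15.4% of all tested genes. *Lrp5*, which binds Wnt together with Frizzled, was at 4.85 FPKM in control and 8.99 FPKM in mutant nerves (log2 ratio 0.88), and *Lrp6* at 9.68 and 12.4 FPKM (log2 ratio 0.36). *Ror1* (0.94 and 1.69 FPKM, log2 ratio 0.78) and *Musk* (1.10 and 1.85 FPKM, log2 ratio 0.70) were called at low levels. *Ror1* passed the filter only through the mutant, so its direction was fixed by the filter. *Ror2* (log2 ratio 0.37), *Ptk7* (0.29) and *Ryk* (0.22) were not called.

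Receptor turnover is set by the ubiquitin ligases Znrf3 and Rnf43, which remove Frizzled from the membrane, and by R-spondins, which bind Lgr receptors and block these ligases. Of 7 tested genes of this group, 3 were called higher, beside 15.4% of all tested genes. *Rnf43* was at 1.91 and 3.59 FPKM (log2 ratio 0.88), whereas *Znrf3* was at 3.15 and 3.70 FPKM (log2 ratio 0.22, overlapping intervals). The R-spondin genes *Rspo3* (8.01 and 13.2 FPKM, log2 ratio 0.71) and *Rspo2* (0.66 and 1.41 FPKM, log2 ratio 0.99) were called, and *Rspo1* had a log2 ratio of -0.17. *Rspo2* passed the filter only through the mutant, so its direction was fixed by the filter. *Lgr4*, the most abundant Lgr receptor here, was at 10.2 and 10.4 FPKM (log2 ratio 0.03), and *Lgr6* had a log2 ratio of 0.14. *Lgr5* and *Rspo4* were below 1 FPKM in both libraries.

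Genes that act with *Fzd4* at vessels went in different directions. *Gpr124*, a co-activator of Wnt7 signals, was at 19.9 and 32.0 FPKM (log2 ratio 0.68) and was called. Its partner *Reck* (log2 ratio 0.31) and the ligand genes *Ndp* (0.36) and *Wnt7b* (-0.02) were not called, and *Wnt7a* was below 1 FPKM. *Tspan12*, which enhances Norrin signalling through *Fzd4*, was lower in the mutant (15.6 and 10.8 FPKM, log2 ratio -0.53), with separated intervals and short of the cutoff.

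The intracellular partners differed little. *Dvl1* (22.7 and 20.1 FPKM), *Dvl2* (6.45 and 6.71 FPKM) and *Dvl3* (21.9 and 23.2 FPKM), which encode the Dishevelled proteins that dock at the printed site, had log2 ratios from -0.18 to 0.08 and overlapping intervals. Among planar polarity genes, 2 of 7 were called higher, both cadherins, beside 15.4% of all tested genes; counts this small do not set the group apart. *Celsr2* was at 4.32 and 10.6 FPKM (log2 ratio 1.28), the highest ratio of the list, and *Celsr1* at 2.19 and 4.14 FPKM (log2 ratio 0.89). *Celsr3* (0.51), *Vangl2* (0.05), *Vangl1* (-0.01), *Prickle2* (-0.01) and *Prickle1* (-0.46) were not called. *Smo*, a Hedgehog transducer that belongs to the same receptor class, was at 22.8 and 37.3 FPKM (log2 ratio 0.71), its mutant value lying just above its own interval.

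**Figure D5:**
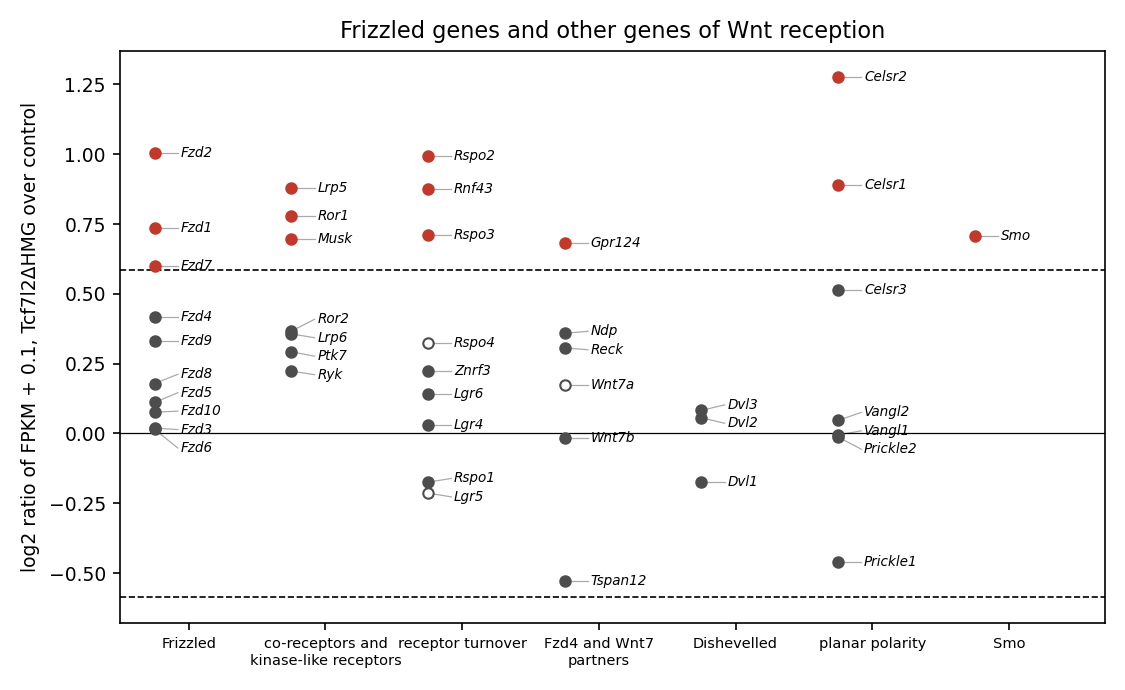
Log2 ratio of mutant to control (vertical axis) for the Frizzled genes and 33 other genes of Wnt reception, by role. Red points were called past 1.5-fold (dashed lines), open points did not reach 1 FPKM in either library, and no red point lies below 0 on the deposited scale, whereas 10 of the other genes, and 52.1% of all tested genes, were called lower when all rows were rescaled.

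On the deposited scale, markers of some other cells differed between the libraries in the same direction as *Fzd1*, *Fzd2* and *Fzd7*. For comparison, 15.4% of all tested genes were called higher and 8.52% lower, and 54.6% had a log2 ratio above 0. Of 7 meningeal fibroblast markers, 7 were higher in the mutant and 3 by over 1.5-fold, with a summed level of 1741 FPKM in control and 2652 FPKM in mutant nerves and no marker of any list at 0. This sum became 1055 and 1395 FPKM without the most abundant gene, whose values lie above their own intervals. Of 8 astrocyte markers, 7 were higher and 1 by over 1.5-fold (summed level 5116 and 6047 FPKM, or 1057 and 1318 FPKM without *Gfap*). Of the neuronal and retinal markers, 4 of 4 tested genes were higher by over 1.5-fold, all of them neuronal, and the retinal markers did not pass the filter. Of 4 red blood cell markers, 4 were higher by over 1.5-fold (summed level 162.9 and 402.7 FPKM, or 74.3 and 174.8 FPKM without the most abundant gene). The neuronal and the red blood cell list each include a gene that reached 1 FPKM only in the mutant (*Rbfox3* and *Alas2*). The filter thus fixed the direction of these genes. Microglial markers summed to 171.8 and 214.5 FPKM, and to 103.3 and 119.5 FPKM without the most abundant gene. Vascular lists were mixed. Of 8 endothelial markers, 3 were higher and 5 lower, with *Cdh5* called higher (log2 ratio 0.59) and *Esam* called lower (-0.65). Their sum of 147.1 and 126.1 FPKM became 83.0 and 82.3 FPKM without *Cldn5*. Of 7 pericyte and smooth muscle markers, 3 were higher and 4 lower, with *Rgs5* called lower (-0.64), and the sum of 112.5 and 95.4 FPKM became 49.5 and 54.9 FPKM without it. Of 5 OL precursor markers, 1 was higher and 4 lower, with *Gpr17* called lower (-0.59). Their sum of 350.8 and 281.1 FPKM became 115.8 and 125.3 FPKM without *Gpr17*, although most of the remaining genes were lower. The part of these cells in the receptor differences was not tested.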

How the data were processed

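Per the labels and the study's methods, reads were mapped with TopHat at default settings and FPKM were computed with Cufflinks by the authors. The submitters' processing notes name mm9. Tool versions and the gene annotation are not given in the sources used here. The deposited tables hold FPKM, the bounds of a confidence interval and a status per row. Unnamed rows took 70.7% of all FPKM for the control and 80.7% for the mutant library.

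Merged names were split, rows of a symbol were summed, and starts are counted from 1. A gene counted as tested where its status was OK in both libraries and its level reached 1 FPKM in either. The pseudocount of 0.1 FPKM understates differences of low genes. Depth was the value at which bounds of rows under 100 bases (194 in the control, 349 in the mutant) were whole fragments, for 90% of bounds within 0.001. At these depths, 3 fragments on 1 kb equal 0.11 and 0.075 FPKM. Fragment numbers of single-exon genes were taken from FPKM, span and depth. The call rule was run on simulated data with little noise and planted changes well past the cutoff. Such data cannot check calls near 1.5-fold or variation between animals.

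The named genes were all 10 Frizzled genes, the 33 listed genes of Wnt reception, *Tcf7l2* and cell type markers, 1 of which is not reported here; the members and lists were chosen with earlier results of these data known. The 2 libraries give no measure of likeness between gene patterns. Alternatives covered the pseudocount, scaling, filter, row choice, fold cutoff and intervals; keeping merged names whole and joining *Fzd4* rows were added after seeing the data. Coding sequences came from GENCODE M21 (1 full-length coding transcript per gene) and were aligned globally with Biopython 1.88, gaps left out of the identity. Python 3.11.15, numpy 2.4.6, pandas 2.3.3 and matplotlib 3.10.9 were used.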

Additional observations from a re-analysis of the deposited data

Results flagged for a closer look

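Rows other than the receptor's own were looked at within 1000 bases of each receptor, and those with a higher FPKM than the receptor itself are given here. Beside *Fzd4* an unnamed row of the control library had 4.62 FPKM (interval 3.88 to 5.02), above the 2.89 FPKM of *Fzd4*, with about 343 fragments, and it is the row joined to *Fzd4* in the report. Beside *Fzd8* an unnamed row had 5.65 FPKM in the control and another had 3.52 FPKM in the mutant, but both values lay above their own intervals, which end at 3.38 and 2.64. Beside *Fzd10*, 413 bases away, lies the gene 5930412G12Rik, which counts among the tested genes. This gene had 13.96 FPKM in the mutant and 3.33 FPKM in the control, against 10.5 and 9.96 FPKM for *Fzd10*. Its intervals were 6.501 to 9.69 and 2.49 to 6.40, so the mutant value lay outside its own interval. Whether the libraries keep strand is not given in the sources used here.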

How the results depend on the processing

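Rescaling all rows, unnamed ones included, to a sum of 1000000 moved the median log2 ratio of tested genes from 0.05 to -0.61. It left 0 receptors higher and 2 lower by over 1.5-fold, a receptor median of -0.40, 1 higher and 10 lower of the other Wnt reception genes, and 640 higher (4.51%) and 7398 lower (52.1%) of all genes (2185 and 1210 on the deposited scale, a share of higher calls of 7.96% against 64.4%). *Fzd7* turned to -0.063, *Fzd1* went to 0.07 and *Fzd2* to 0.34, still the highest of the family. With a fold change above 2, 1 receptor (*Fzd2*), 1 other Wnt reception gene, and 975 higher (6.87%) and 522 lower (3.68%) of all tested genes passed. With at least 5 FPKM in 1 library, 5 of 20 tested other Wnt reception genes were higher, compared with 1290 of 10535 tested genes (12.2%). Scaling named rows to a sum of 1000000 called 10 other Wnt reception genes higher and 1 lower, compared with 13.4% and 10.7% of all tested genes.

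*Fzd7* lost its call, leaving 2 receptors, with a pseudocount of 1 FPKM, with centring, with scaling to the 75th percentile (log2 ratio 0.55) and with named rows at a common sum (0.53). In these settings 11.8%, 13.8%, 13.8% and 13.4% of all tested genes were called higher. Of 157 values recomputed under 13 alternatives, 133 stayed within a set allowance. For ratios this was the distance from the middle of the log2 ratio's interval to a bound, and for counts a change of at most 1.5 times. The fall from 3 to 2 called receptors lies within that allowance. Receptor values could not move under the highest row per symbol, unsplit names or no filter. Each receptor has 1 unmerged row and passes the filter, so the 133 are not a measure of stability. No paired analysis was possible because each genotype had 1 library. Variation between animals could not be measured.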
